A study of Mus musculus with 5 samples.

Results

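The genes described here are 37 genes of sterol and fatty acid synthesis, the regulators that control them and the proteins that carry sterols within or out of the cell. They were chosen by name, with earlier results of these data known, so their shares below are descriptions. They were measured in mouse thymic cell suspensions on 5 Affymetrix arrays. All 37 were found among the 19764 gene symbols of the deposited table, 2 of them, Msmo1 and Acaca, under an older symbol. Each gene is represented by its probe set (a set of short probes for 1 transcript) with the highest mean log2 level over the 5 arrays. A level filter at the median over genes, a mean of 5.28, kept 9882 genes, and 35 of the 37 were among them. Below it lay Acaca at a mean of 3.71 and Nr1h3 at 4.90, and the next above it were Mvd at 5.67 and Hsd17b7 at 5.77.

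Cells make cholesterol from acetyl-CoA by way of mevalonate, isoprenoid diphosphates, squalene and a series of sterol intermediates, and they make fatty acids from the same acetyl-CoA. When sterols are scarce, the SREBP transcription factors leave the endoplasmic reticulum with their escort Scap and switch on these genes, while Insig proteins hold them back when sterols are plentiful. When sterols are in excess, the LXR receptors switch on the efflux pumps Abca1 and Abcg1. Dividing T cells are known to raise the synthesis pathway.

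The study set dexamethasone, a synthetic glucocorticoid, against its vehicle in living animals and in culture. Each array held RNA from thymic cells pooled from 3 mice, all males of the outbred CD-1 stock between 4 and 6 weeks of age, and no group carried a transgene or deletion that the labels mention. The groups were animals 4 h after an intraperitoneal injection of 0.2 mg dexamethasone, animals 4 h after an injection of phosphate-buffered saline (PBS), suspensions cultured for 4 h with dexamethasone (10e-7 M, as the labels write it), suspensions cultured for 4 h with 0.1% ethanol, and untreated animals. There was 1 array per group, so a difference between arrays has no replicate behind it, and the number of arrays limits the precision. The labels say that the suspensions were pooled, without saying whether the cultured pools were split from 1 suspension.

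The suspensions were rich in transcripts of double-positive thymocytes, which are immature T cells with both CD4 and CD8 on their surface. Satb1, an abundant marker of these cells, stood between 12.23 and 12.60 on all 5 arrays. The median log2 value over all probe sets lay between 4.23 and 4.37 on the arrays. No detection calls were given in the files used here. Epithelial, fibroblast and macrophage transcripts stood far lower in both cultures than in the other arrays, with values given beside the genes they touch. Fewer cells of a type and less RNA per cell cannot be told apart in such bulk samples.

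Dexamethasone went with lower levels of most of these genes in both settings. In vivo, 30 of the 35 genes kept by the level filter were lower in the dexamethasone array than in the PBS array, with a median log2 difference of -0.41, against 58.6% and -0.07 over all kept genes. In vitro, 28 of the 35 were lower with dexamethasone than with ethanol, with a median of -0.34, against 40.7% and 0.04 over all kept genes. In all, 26 of 35 (74.3%) were lower in both settings, against 27.4% of all kept genes. These 2 comparisons share no array. In vivo 1 of the 35, Idi1, was at least 2-fold lower, against 1.48% of all kept genes. In vitro 4 of the 35, Hmgcs1, Sqle, Cyp51 and Msmo1, were at least 2-fold lower, against 0.86% of all kept genes. None of the 35 was at least 2-fold higher in vivo, where 2.71% of all kept genes were, or in vitro, where 1.53% were.

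A limma fit over the 4 dexamethasone and vehicle arrays, with setting as a block, tested the mean dexamethasone difference of each gene, with Benjamini-Hochberg adjustment over all 9882 kept genes at a threshold of 0.05. Of the 35 genes, 7 fell and 0 rose, against 1.46% and 2.34% of all kept genes. The 7 were Sqle, Fdps, Msmo1, Scd2, Idi1, Hmgcs1 and Cyp51. An unadjusted p under 0.05 in limma was found for 16 of the 35, against 1262 of the 9882 kept genes. The fit has 1 residual degree of freedom per gene, which comes from how far the in vivo and in vitro differences lie apart, and it holds no spread between pools treated alike. The calls depend on the fit: with each array centred on its median, without the level filter, or without the block, 0 of these genes passed. Without the trend, or with the mean of all probe sets, 2 of the 35 fell. With log2(intensity + 32) 6 of the 35 fell, and with the stricter level filter 6 of the 18 it kept. Under the 7 alternatives, each of the 7 called genes stayed below 0 in all that tested it. Dropping the block or trend, or changing the level filter, cannot move a gene's mean difference, so its sign was fixed there. The stricter level filter left out 3 of the 7 genes, Sqle, Cyp51 and Msmo1.

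**Figure D1:**
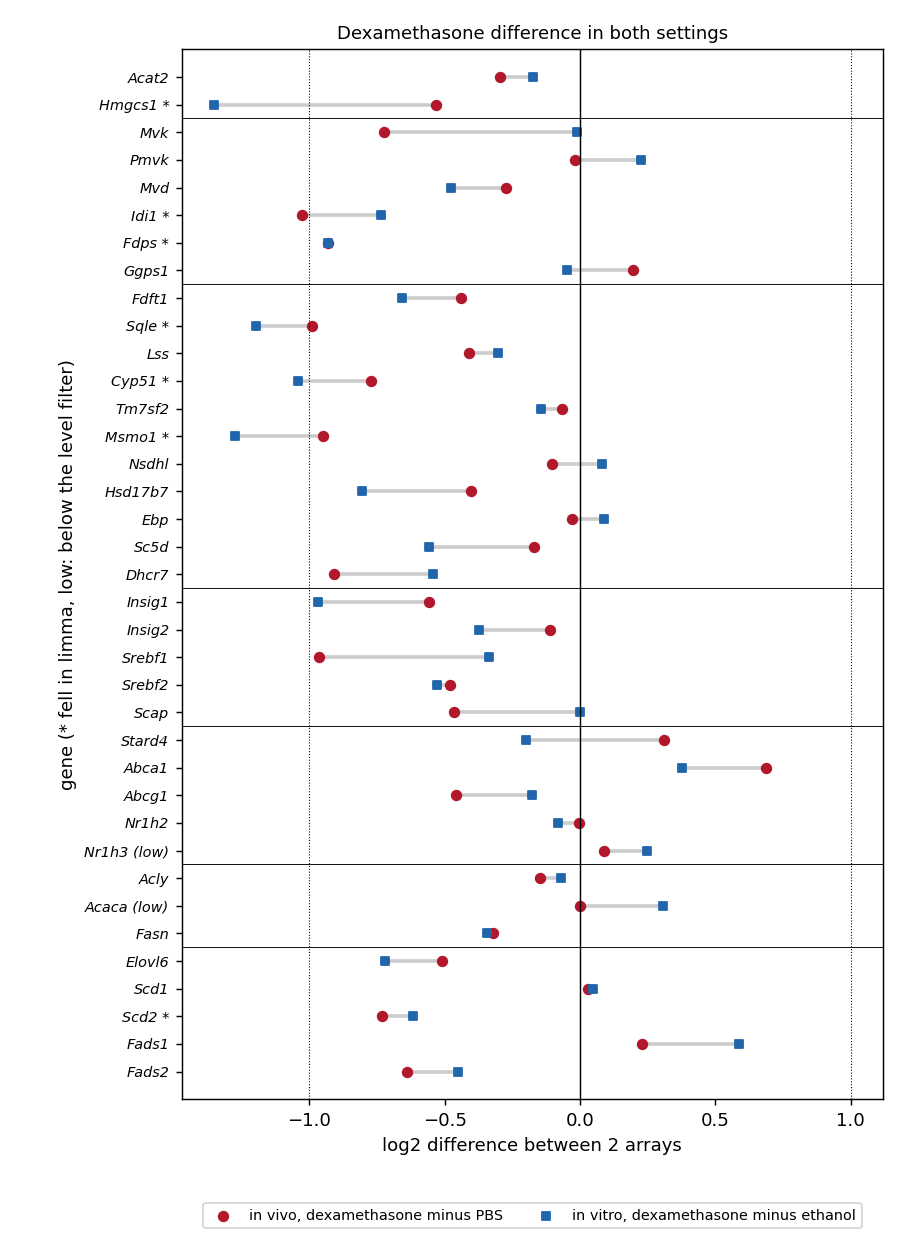
Log2 difference between the dexamethasone array and its vehicle array for each of the 37 genes, in vivo (red circles, minus PBS) and in vitro (blue squares, minus ethanol), with dotted lines at 2-fold and 1 array per group. Most points lie left of 0, the 7 genes with an asterisk fell in the limma test, and Abca1, Fads1, Scd1 and Nr1h3 lie right of 0 in both settings.

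The pathway opens with Acat2, which joins 2 molecules of acetyl-CoA, and Hmgcs1, which makes hydroxymethylglutaryl-CoA from them. Hmgcs1 had a log2 level of 8.89 in vivo with dexamethasone against 9.42 with PBS, of 9.33 in culture with dexamethasone against 10.68 with ethanol, and of 9.06 untreated. The ethanol culture stood well above the other 4 arrays, so the in vitro difference, -1.35, was larger than the in vivo one, -0.53. Hmgcs1 fell by 0.94 on the log2 scale over both settings (SE 0.191, limma adjusted p = 0.0229). Acat2 was lower by less, at -0.30 in vivo and -0.18 in vitro, and did not pass (limma adjusted p = 0.643).

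Among the 6 enzymes that turn mevalonate into isoprenoid diphosphates, Idi1 and Fdps fell and the other 4 did not pass. Idi1, which interconverts the pair of 5-carbon isoprenoid units, had levels of 7.45 in vivo with dexamethasone against 8.48 with PBS, 8.17 in culture with dexamethasone against 8.90 with ethanol, and 8.38 untreated. It fell by 0.88 on the log2 scale (SE 0.174, limma adjusted p = 0.0208), and its in vivo array was the lowest of the 5. Fdps, which builds farnesyl diphosphate, had levels of 7.62 in vivo with dexamethasone against 8.55 with PBS, 7.92 in culture with dexamethasone against 8.85 with ethanol, and 8.32 untreated. Its difference was the same in both settings, at -0.93, and it fell by 0.93 (SE 0.168, limma adjusted p = 0.0141).

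The kinases of this stretch behaved less evenly. Mvk, mevalonate kinase, was at -0.73 in vivo but at -0.01 in vitro, where both cultures stood at 6.34 with dexamethasone and 6.35 with ethanol, above 5.46 untreated. A further Mvk probe set of nearly the same mean level was instead at -0.04 in vivo and -0.20 in vitro. Its cultures stood at 5.89 with dexamethasone and 6.10 with ethanol, above 5.69 untreated. Pmvk, phosphomevalonate kinase, had differences of -0.02 in vivo and 0.23 in vitro, and both its cultures, at 7.04 with dexamethasone and 6.81 with ethanol, likewise exceeded 6.06 untreated. Mvd, which removes a carboxyl group from mevalonate diphosphate, was at -0.27 and -0.48. Ggps1, which leads to geranylgeranyl diphosphate and away from sterols, was at 0.19 and -0.05. Limma's adjusted p was 0.636 or more for these 4.

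Of the 11 enzymes of squalene and the sterol ring, all 11 were lower in vivo and 9 were lower in vitro, and Sqle, Cyp51 and Msmo1 fell. Sqle, squalene epoxidase, had levels of 6.66 in vivo with dexamethasone against 7.65 with PBS, 7.03 in culture with dexamethasone against 8.23 with ethanol, and 7.27 untreated. It fell by 1.09 on the log2 scale (SE 0.189, limma adjusted p = 0.0118), the lowest p among these genes. On this probe set, both dexamethasone arrays of Sqle lay below the untreated array and both vehicle arrays above it. Another Sqle probe set, of nearly the same mean level, has probes that may bind transcripts of other genes. There PBS, at 7.29, lay below untreated, at 7.75, and the differences were -0.30 in vivo and -0.92 in vitro.

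Cyp51, which takes a methyl group from lanosterol, had levels of 5.70 in vivo with dexamethasone against 6.47 with PBS, 6.50 in culture with dexamethasone against 7.54 with ethanol, and 6.01 untreated. It fell by 0.91 (SE 0.210, limma adjusted p = 0.0450), close to the threshold. It was tested in 6 alternatives and passed in 0 of them, with a limma adjusted p of 0.0708 at best. Msmo1, the sterol C4-methyl oxidase that follows, had levels of 5.62 in vivo with dexamethasone against 6.56 with PBS, 6.56 in culture with dexamethasone against 7.84 with ethanol, and 6.51 untreated. Msmo1 fell by 1.11 (SE 0.210, limma adjusted p = 0.0168). Its PBS and cultured dexamethasone arrays held 1 shared value, 6.56, close to the untreated array, and each of its dexamethasone differences uses that value.

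Fdft1, squalene synthase, had differences of -0.44 in vivo and -0.66 in vitro, and stood 2.59-fold higher in ethanol culture than untreated. Dhcr7, which completes cholesterol, was at -0.91 in vivo, with 7.18 against 8.09 with PBS, and at -0.54 in vitro. Neither passed (limma adjusted p of 0.168 for Fdft1 and 0.0657 for Dhcr7). Hsd17b7, a sterol ketone reductase, was at -0.40 and -0.80, Lss, lanosterol synthase, at -0.41 and -0.30, and Sc5d, a sterol desaturase, at -0.17 and -0.56. The late steps Nsdhl, at -0.10 and 0.08, and Ebp, at -0.03 and 0.09, and the reductase Tm7sf2, at -0.07 and -0.14, barely differed in either setting. Over the 19 sterol pathway enzymes, the differences ran from -1.03 for Idi1 to 0.19 for Ggps1 in vivo, and from -1.35 for Hmgcs1 to 0.23 for Pmvk in vitro. Subtracting the in vitro from the in vivo difference gave a value of at least 2-fold either way for 0 of the 35 genes, against 3.63% of all kept genes. On the probe sets used, these values ran from -0.71 for Mvk to 0.82 for Hmgcs1.

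**Figure D2:**
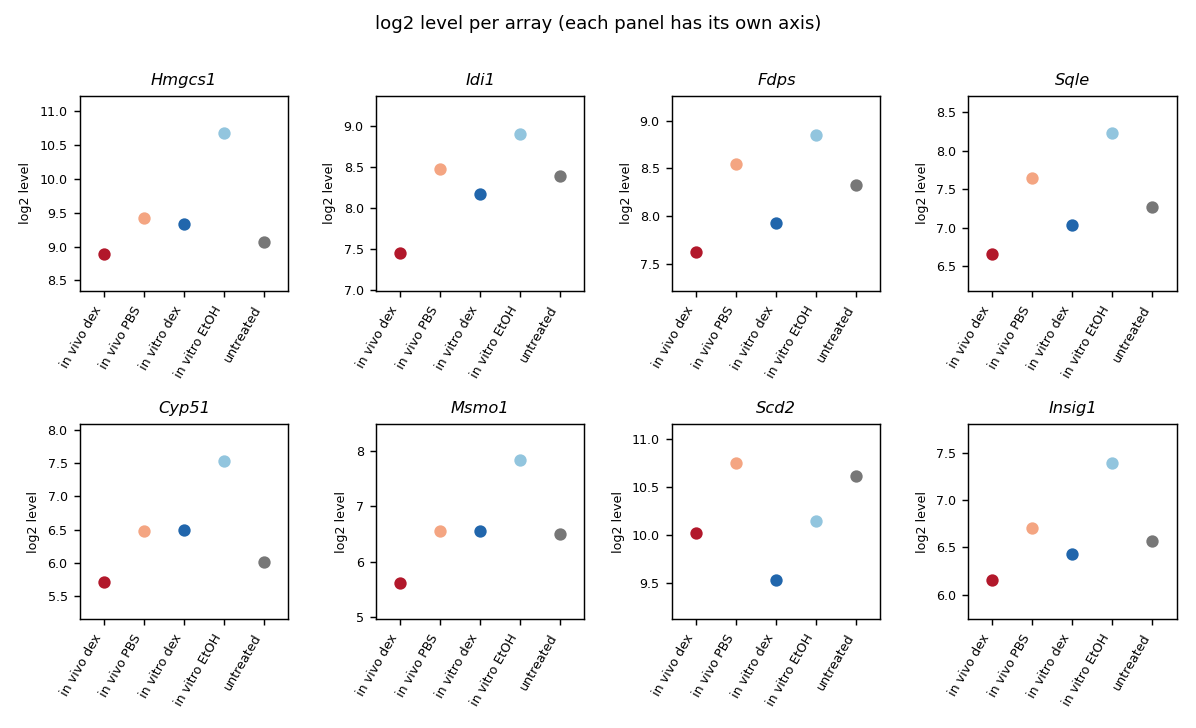
Log2 level on each of the 5 arrays for the 7 genes that fell and for Insig1, which did not pass, with 1 point per array and a separate axis for each gene. In every panel the dexamethasone array is below its own vehicle array, and ethanol culture is the highest array for all but Scd2.

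The promoters of Hmgcs1 and Msmo1 are shown because both genes fell and they differ in the letters searched, as the gene with the sterol element and, among genes with a promoter entry and without that element, the one of lowest p. Sequences are from RefSeq on GRCm38.p6, 250 bases before to 50 after the start, in the direction of the gene. The sterol regulatory element was searched as TCACNCCAC and the NF-Y box as CCAAT, each on both strands, and capitals mark these matches, which do not overlap. The Hmgcs1 window is chr13:119690101-119690400 on the plus strand and the Msmo1 window is chr8:64733529-64733828 on the minus strand.
Hmgcs1: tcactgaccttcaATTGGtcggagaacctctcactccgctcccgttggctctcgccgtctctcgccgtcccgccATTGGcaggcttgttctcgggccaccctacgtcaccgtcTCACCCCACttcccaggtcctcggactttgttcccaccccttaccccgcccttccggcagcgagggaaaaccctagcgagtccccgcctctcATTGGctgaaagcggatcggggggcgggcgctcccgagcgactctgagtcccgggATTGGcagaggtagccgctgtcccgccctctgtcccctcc
Msmo1: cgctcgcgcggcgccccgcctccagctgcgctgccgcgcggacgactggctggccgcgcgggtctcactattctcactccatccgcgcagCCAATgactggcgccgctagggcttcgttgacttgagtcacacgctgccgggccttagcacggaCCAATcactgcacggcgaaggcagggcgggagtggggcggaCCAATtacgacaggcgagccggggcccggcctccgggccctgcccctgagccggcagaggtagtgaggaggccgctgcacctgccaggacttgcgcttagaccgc
Hmgcs1 held 1 sterol element, starting 137 bases before the start, and 4 NF-Y boxes on the opposite strand, while Msmo1 held 3 NF-Y boxes on its own strand and no sterol element. Of the 37 genes, 29 had a promoter entry, and 1 of them held the sterol element, against 1.44% of all 27025 genes in the table. The NF-Y box was in at least 1 promoter of 21 of the 29 (72.4%) and of 15 of the 16 sterol pathway enzymes with an entry, against 41.1% of all genes. That share is over all 27025 genes and was not limited to genes kept by the level filter. NF-Y is a general factor known to act beside SREBP at sterol genes. Full-length palindromic glucocorticoid elements and LXR elements were also searched, and were in 0 of the 29 genes and in 3 and 4 genes of the whole table. A match is a description of letters and not a binding site.

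Of the 5 regulators of the pathway, 5 were lower in vivo and 4 in vitro, against 58.6% and 40.7% of all kept genes. In the limma test 0 of them passed. Insig1, an SREBP target that retains SREBP, had levels of 6.15 in vivo with dexamethasone against 6.71 with PBS, 6.43 in culture with dexamethasone against 7.39 with ethanol, and 6.56 untreated. Its mean difference was -0.76 (SE 0.213, limma adjusted p = 0.0978), and it followed the same order of arrays as the probe set used for Sqle. Insig2, its less sterol-dependent relative, was at -0.11 in vivo and -0.37 in vitro.

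Srebf1, which encodes SREBP-1, had levels of 8.94 in vivo with dexamethasone against 9.90 with PBS, 9.10 in culture with dexamethasone against 9.43 with ethanol, and 9.32 untreated. Its highest array was PBS, so the in vivo difference, -0.96, was larger than the one in vitro, -0.34 (limma adjusted p = 0.0849). Srebf2, which encodes SREBP-2, the main driver of the sterol genes, was at -0.48 and -0.53 (limma adjusted p = 0.211). Scap was at -0.47 in vivo and at 0.00 in vitro, with 8.31 on both cultured arrays.

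The 4 kept genes of sterol transport and the LXR receptors were mixed. Of them 2 were lower in vivo and 3 in vitro, against 58.6% and 40.7% of all kept genes. Abca1, a pump that exports cholesterol, had levels of 10.10 in vivo with dexamethasone against 9.41 with PBS, 8.50 in culture with dexamethasone against 8.13 with ethanol, and 9.32 untreated. It was higher with dexamethasone in both settings, by 0.69 and 0.38, and did not pass (SE 0.159, limma adjusted p = 0.128). Abcg1, another LXR target and sterol pump, was at -0.46 and -0.18, so the 2 pumps stood on opposite sides of 0. Stard4, a carrier of cholesterol between membranes, was at 0.31 and -0.20. The LXR genes differed little: Nr1h2 (LXR beta) was at 8.38 in both in vivo arrays, and Nr1h3 (LXR alpha), below the level filter, was at 0.09 and 0.25.

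Of the 3 enzymes that begin fatty acid synthesis, the 2 kept by the level filter were lower in both settings and did not pass. Over all kept genes 27.4% were lower in both. Acly, which makes acetyl-CoA from citrate, was at -0.15 in vivo and -0.07 in vitro, on levels between 9.81 and 10.03. Fasn, fatty acid synthase, had levels of 8.77 in vivo with dexamethasone against 9.09 with PBS, 7.15 in culture with dexamethasone against 7.49 with ethanol, and 8.84 untreated. Its differences were alike in both settings, -0.32 and -0.34, and it did not pass (limma adjusted p = 0.499). Acaca, acetyl-CoA carboxylase, had 1 probe set, below the level filter, with the same value, 3.77, on 4 arrays and 3.47 in ethanol culture.

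The desaturases and the elongase split. Scd2, a stearoyl-CoA desaturase, had levels of 10.02 in vivo with dexamethasone against 10.75 with PBS, 9.52 in culture with dexamethasone against 10.14 with ethanol, and 10.62 untreated. Scd2 fell by 0.67 on the log2 scale (SE 0.129, limma adjusted p = 0.0183), the only gene outside the sterol pathway among the 7. Scd1, which encodes a closely related desaturase and lies 1 protein-coding gene away from Scd2, differed by 0.03 in vivo. In both cultures it lay near the median of all probe set values, 4.32, so its in vitro value of 0.05 says little about dexamethasone.

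Elovl6, which lengthens palmitate, had differences of -0.51 in vivo and -0.72 in vitro, and did not pass (limma adjusted p = 0.199). Its levels were 5.97 in vivo with dexamethasone and 7.20 in ethanol culture, and the other 3 arrays held 1 shared value, 6.48. Fads2, the delta-6 desaturase of polyunsaturated fatty acids, was at -0.64 and -0.45 (limma adjusted p = 0.303). Fads1, the delta-5 desaturase and the next protein-coding gene to Fads2 on the chromosome, was instead at 0.23 and 0.59 (limma adjusted p = 0.423), with its highest level, 8.22, in culture with dexamethasone.

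Most sterol enzymes stood higher in ethanol culture than in the untreated suspension. Of the 19, 17 were higher, with a median difference of 0.53, against 50.6% and 0.01 over all kept genes. Hmgcs1, Cyp51, Fdft1 and Msmo1 were at least 2-fold higher, by 3.07-fold, 2.88-fold, 2.59-fold and 2.51-fold, where 3.1% of all kept genes were. Ethanol culture was the highest of the 5 arrays for 14 of the 19 (73.7%), against 19.4% of all kept genes. It was also the highest for 11 of the 18 double-positive thymocyte markers (61.1%) described below. In culture with dexamethasone the same 19 enzymes had a median of 0.06 against the untreated array, on a range from -0.74 to 0.98. The dexamethasone culture thus stood near the untreated array, and the ethanol culture above both. In vivo dexamethasone had a median of -0.17 against untreated and was the lowest of the 5 arrays for 11 of the 19 (57.9%), against 33.6% of all kept genes. It was the lowest for 17 of the 18 double-positive thymocyte markers (94.4%). Over all 35 kept genes, in vivo dexamethasone left 0 at least 2-fold lower and 0 at least 2-fold higher than untreated, where 2.25% and 2.49% of all kept genes were. In culture with dexamethasone, Fasn, Scd1 and Scd2 were at least 2-fold lower than untreated and Fads1 at least 2-fold higher, 3 and 1 of 35, where 8.54% and 5.02% of all kept genes were. These comparisons share the untreated or the ethanol array with each other and with those above.

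**Figure D3:**
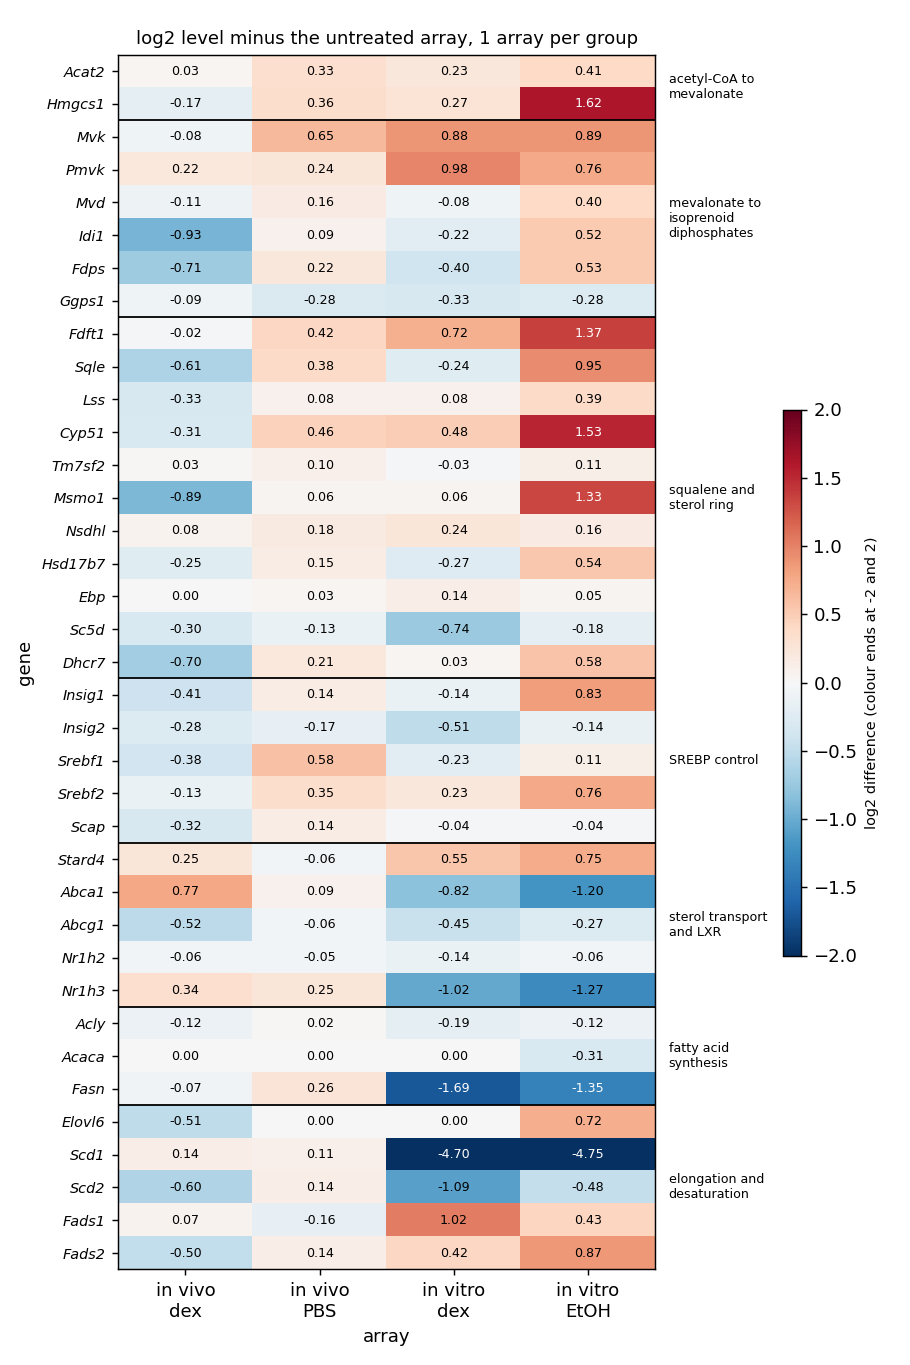
Log2 level minus the untreated array for the 37 genes in rows, grouped by role, and for in vivo dexamethasone, PBS, cultured dexamethasone and ethanol culture in columns, with 1 array each and colour ending at -2 and 2. The ethanol column is mostly red for sterol enzymes, up to 1.62 for Hmgcs1, while Scd1, Fasn, Abca1 and Nr1h3 are blue in both cultures.

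A smaller group stood lower in culture, with or without dexamethasone. Scd1 had levels of 9.27 in vivo with dexamethasone, 9.24 with PBS and 9.13 untreated, against 4.43 in culture with dexamethasone and 4.39 with ethanol. Both culture levels lay near the median of all probe set values, 4.32, and are not shown to be above background, so no fold is given, and Scd1 passed the level filter through the other 3 arrays. Its other probe set, below the filter, stood at 3.93 in ethanol culture against 5.79 untreated. Fasn was 2.55-fold and Abca1 2.29-fold lower in ethanol culture than untreated. Nr1h3, below the level filter, stood at 3.97 in ethanol culture against 5.24 untreated. Among kept genes, Scd1, Fasn and Abca1 were at least 2-fold lower in ethanol culture, 3 of 35, a share close to the 8.07% of all kept genes.

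Markers of adipocytes, thymic epithelium, fibroblasts and macrophages were also lower in culture. The 11 adipocyte markers had a summed linear intensity of 137 in culture with dexamethasone and 143 with ethanol, against 8076 in vivo with dexamethasone, 4534 with PBS and 5388 untreated. Car3 and Fabp4 stood at 3.47 and 2.75 in ethanol culture, against 11.34 and 10.58 untreated, and 8 of 11 markers were at least 2-fold lower. In ethanol culture against untreated, the median of the 12 thymic epithelium markers was -5.73, and Ccl25 and Prss16 were at -6.77 and -6.82. Their summed intensity was 332 in culture with dexamethasone and 314 with ethanol, against 13987 untreated. Stromal fibroblast markers gave a median of -3.22 over 10 genes, where Dcn was at -5.86 and Col3a1 at -6.56, and sums of 256 and 145 in the same cultures, against 2839 untreated. For macrophages the median over 12 genes was also -3.22, where Csf1r was at -4.33 and Lyz2 at -3.09, and the sums were 608 and 795, against 8696 untreated. Their part in the lower Scd1, Fasn, Abca1 and Nr1h3 was not tested. In vivo, the adipocyte markers had a median of 0.76 and the macrophage markers one of 0.43 with dexamethasone against PBS, where Abca1 was at 0.69, and their part in that value was not tested either.

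**Figure D4:**
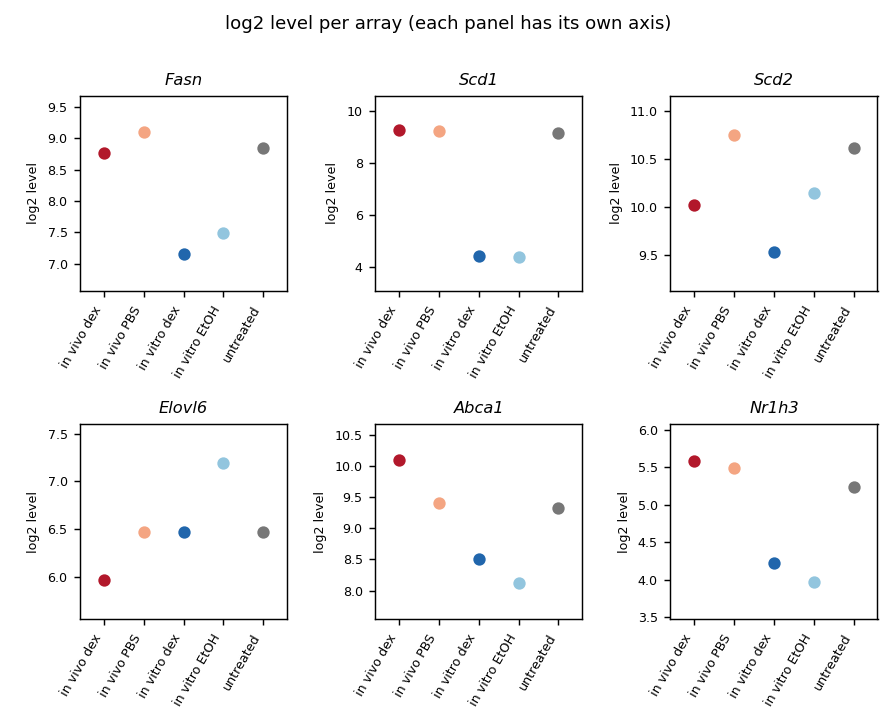
Log2 level on each of the 5 arrays for Fasn, Scd1, Scd2, Elovl6, Abca1 and Nr1h3, with 1 point per array and a separate axis for each gene. Fasn, Scd1, Abca1 and Nr1h3 are lower in both cultures than on the 3 other arrays, while Elovl6 is highest in ethanol culture.

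Thymocyte markers were also lower with dexamethasone. Of 18 measured double-positive markers, 17 were lower in vivo and 16 in vitro, against 58.6% and 40.7% of all kept genes. Their medians were -0.59 in vivo and -0.34 in vitro. Of the 18, 8 fell in the limma test, against 1.46% of all kept genes. The summed intensity of the 18 was 27006 in vivo with dexamethasone against 39754 with PBS, and 36502 in culture with dexamethasone against 48345 with ethanol. The abundant Satb1 was at -0.09 and -0.11 and Ccr9 at -0.54 and -0.32. In ethanol culture against untreated the double-positive markers had a median of 0.23. The part of these shifts in the lower sterol enzymes was not tested.

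The remaining marker lists had medians between -0.37 and 0.00 in vivo and between -0.61 and 0.27 in vitro. For dendritic cells the medians were -0.17 in vivo and -0.61 in vitro, with Cd74 at 0.16 and -0.63 and H2-Aa at 0.17 and -0.84. For B cells they were -0.20 and -0.29, with Cd79b at 0.15 and 0.66 and Blk at -0.86 and -0.31. For endothelium they were 0.00 and -0.08, with Pecam1 at -0.24 and -0.20 and Plvap at -0.32 and 0.26. Granulocyte markers had medians of -0.37 and 0.27, with S100a8 at 0.01 and 0.30 and S100a9 at 0.03 and 0.14, and erythroid markers -0.13 and 0.07, with Hba-a1 at 0.36 and 0.01 and Alas2 at -0.28 and 0.37. In ethanol culture against untreated the medians of these lists differed less than those of the 4 above, where the adipocyte median was -1.50. They were -0.61 for dendritic cells, -0.58 for endothelium, -0.50 for B cells, -0.31 for granulocytes and 0.22 for erythroid cells. The dendritic cell median hides a larger difference in summed intensity, which was 1227 in culture with dexamethasone and 2055 with ethanol, against 8767 untreated.

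Between the PBS and untreated arrays, the 19 sterol enzymes had a median of 0.18 in PBS minus untreated, with 17 of 19 higher, against 45.4% of all kept genes, and none of the 35 genes was 2-fold different either way, where 0.567% of all kept genes were. Mvk at 0.65 and Srebf1 at 0.58 were the highest, and Ggps1 at -0.28 was the lowest. The other probe set of Mvk was at 0.24. In the same comparison 8 of 8 granulocyte markers were higher, with a median of 0.78, and Hba-a1, an erythroid marker, was at -0.82, and their part in these values was not tested.

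Other probe sets of the same genes mostly gave the same direction. Of 25 further probe sets at or above the level filter, 21 had the sign of the probe set used in vivo, 22 in vitro and 22 in ethanol culture against untreated. The median gap between probe sets of a gene was 0.16 in vivo and 0.16 in vitro, and the largest was 0.69 for Sqle in vivo and 1.13 for Scd2 in vitro. The probe sets used for Acat2, Mvd, Fdft1, Lss and Hsd17b7 carry a suffix by which Affymetrix marks probes that may bind transcripts of other genes. For Fdft1 a probe set without that suffix was at -0.60 in vivo and -0.72 in vitro.

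**Figure D5:**
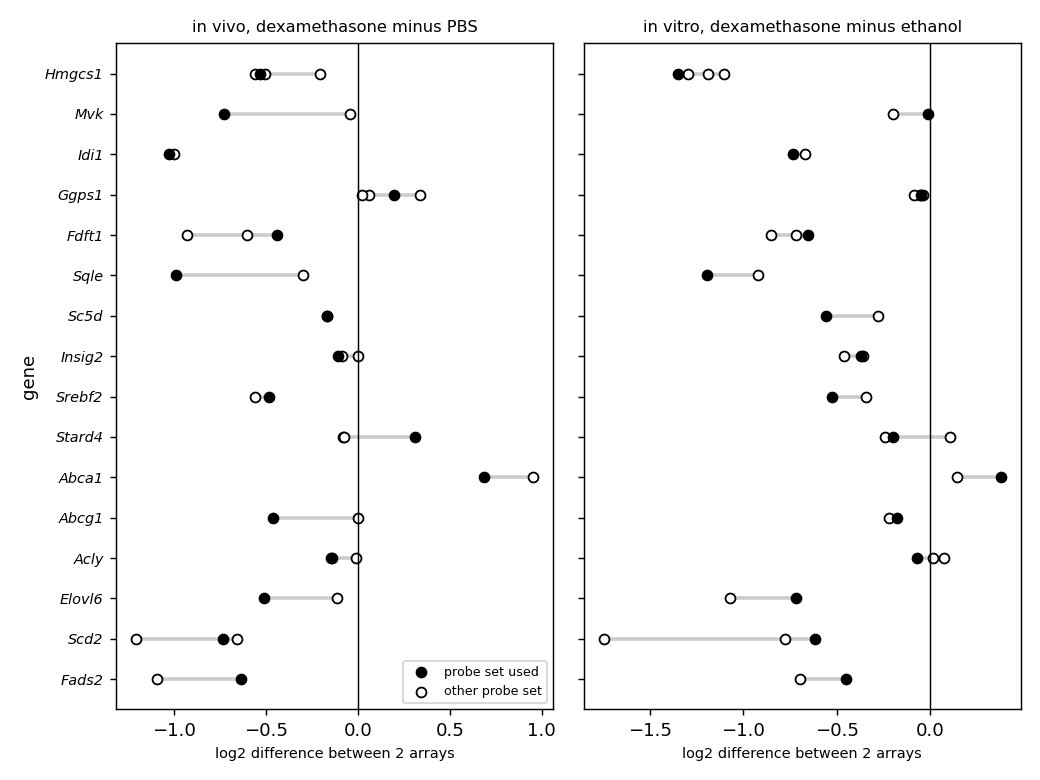
Log2 difference with dexamethasone in vivo (left) and in vitro (right) for every probe set at or above the level filter of the 16 genes with more than 1 such probe set, with filled points for the probe set used and open points for the others. The points of most genes lie on 1 side of 0, and Stard4 has points on both sides in each setting.

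Neighbouring branches of lipid metabolism were read from lists of other genes, whose counts of genes that fell or rose stand against 1.46% and 2.34% of all kept genes. The 13 isoprenoid-using genes, such as the prenyl transferases, had medians of -0.01 in vivo and 0.05 in vitro, and 0 of them passed limma, with 2 at an unadjusted p under 0.05. Fntb, a farnesyltransferase subunit, was at 0.37 and 1.21, and Rabggta, a Rab prenyl transferase subunit, at -0.35 and -0.63. The 10 genes of SREBP processing and sterol-regulated degradation had medians of -0.08 and 0.10, with 1 that rose and 1 that fell. Mbtps1, the site-1 protease that cuts SREBP, rose by 0.96 (SE 0.149, limma adjusted p = 0.00658), opposite to the sterol enzymes. Rnf145, a ubiquitin ligase of sterol control, fell by 0.57 (SE 0.105, limma adjusted p = 0.0158).

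Of 8 kept genes of sterol storage, oxysterols and trafficking, 2 fell. Soat1, which esterifies cholesterol for storage, fell by 0.85 (limma adjusted p = 0.0309), and was at -0.67 in vivo and -1.02 in vitro. Lipa, the lysosomal lipase that frees cholesterol from esters, fell by 0.66 (limma adjusted p = 0.0390). Of 4 other LXR targets, Lpcat3, a phospholipid acyltransferase, rose by 0.71 (limma adjusted p = 0.0387) and Arl4c, a small GTPase, fell by 0.67 (limma adjusted p = 0.0468). The LXR targets, Abca1 and Abcg1 included, lay on both sides of 0.

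Of 15 other kept genes of fatty acid synthesis and activation, 2 rose and 0 fell. In this list 8 were higher in vivo and 11 in vitro, against 38.8% and 56.3% of all kept genes. In both settings 6 were higher, against 2515 of the 9882 kept genes. Elovl5, which lengthens polyunsaturated fatty acids, rose by 0.72 (SE 0.128, limma adjusted p = 0.0134), with 10.36 in vivo with dexamethasone against 9.72 with PBS and 10.81 in culture with dexamethasone against 10.01 with ethanol. Hacd2, a dehydratase of very long chain elongation, rose by 0.82 (SE 0.164, limma adjusted p = 0.0214). Of 13 kept fatty acid oxidation genes, 11 were higher in vivo, with a median of 0.34, and 9 in vitro, with a median of 0.07, against 38.8% and 56.3% of all kept genes, and 0 passed limma, with 1 at an unadjusted p under 0.05. Etfdh, which passes electrons from oxidation to the respiratory chain, was at 0.53 and 0.24, and Acadvl, a very long chain dehydrogenase, at 0.52 and 0.14.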

How the data were processed

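Expression was measured on 5 Affymetrix arrays, 1 per group. The deposited log2 levels were made with RMA, per the submitters' processing notes. For RMA, version and settings are not stated in any source used here. The deposited series matrix held the same levels as linear intensity (largest gap after log2, 7.11e-15), and the authors' deposited table of log2 differences equalled differences of those levels. A total of 7 of the 37 genes had the same value, at 5 decimals, on at least 2 arrays.

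There were 45101 probe sets, of which 22692 had symbols still in use, 11309 were matched by a unique synonym and 1562 by accession through a RefSeq table of GRCm38.p6, and 4760 kept the symbol of the file. Another 4714 were unnamed and 64 were controls. Differences between arrays had no test. limma 3.58.1 in R 4.3.3 fitted dexamethasone, with setting as a block, on 4 arrays (eBayes, trend over the mean level) and was tested on simulated data. Alternatives were no block, no trend, other level filters, the mean of all probe sets, median-centred arrays, log2(intensity + 32), a 1.5-fold threshold and the untreated array as control. The genes, 6 pathway lists and 10 marker lists were chosen with earlier results of these data known. All 37 genes are named. Each pathway list names its 2 largest mean dexamethasone differences and every gene that passed, and each marker list its 2 highest levels.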

Additional observations from a re-analysis of the deposited data

Results flagged for a closer look

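With 1 array per group no group was large enough to look for samples that stand apart. Of the 35 genes kept by the level filter, 5 moved in opposite directions with dexamethasone in vivo and in vitro, against 41.7% of all kept genes. These differences between the settings were not tested. In vivo minus in vitro, the value was 0.51 for Stard4, the cholesterol carrier, 0.24 for Ggps1, -0.24 for Pmvk, -0.19 for Nsdhl and -0.12 for Ebp. The other probe sets of Stard4 were at -0.08 and -0.07 in vivo and at -0.25 and 0.10 in vitro.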

How the results depend on the processing

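The limma counts were the least stable. The test called 231 genes that rose and 144 that fell, a 61.6% share of rises, and 7 of the 35 genes fell. Without setting as a block, or without the level filter, it called 0 and 0 genes and 0 of the 35, with 324 and 1313 genes and 3 and 14 of these genes at an unadjusted p under 0.05. Without the trend 94 rose and 32 fell, 2 of the 35 among them. With arrays centred on their medians 93 rose and 23 fell (80.2% rises) and 0 of the 35 passed. The centring moved differences with dexamethasone by 0.039 in vivo and by -0.041 in vitro. These shifts have opposite signs, so the gap between the settings, from which the residual comes, moved by more than either. With the mean of all probe sets 152 rose and 2 of the 35 fell. With the stricter level filter 202 rose and 160 fell, 6 of the 18 genes it kept among those that fell. That filter kept 4 of the 7 called genes. With log2(intensity + 32) 184 rose and 102 fell, 6 of the 35 among those that fell. The causes were not tested. Of 228 values of single genes under these alternatives, 227 kept their direction, and Stard4 reversed, at -0.031 with the mean of all probe sets. Without the block or trend, or with other level filters, the mean difference cannot change, so those values could not reverse. Adjusted p over the alternatives ran from 0.00186 to 1 for Idi1 and from 0.0048 to 1 for Scd2, which passed in 3 of 7 each.

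At 1.5-fold, 10 of the 35 were lower and 1 higher in vivo, 11 and 1 in vitro, 12 higher in ethanol culture, 1 higher with PBS, and 2 lower and 1 higher in the in vivo minus in vitro value, since more genes pass a lower threshold. In vivo, 0 were 2-fold lower with centring, with log2(intensity + 32) or against untreated, and 1 was 2-fold higher with the mean of all probe sets. Against untreated the medians were -0.17 in vivo and -0.045 in vitro, 1 gene was 2-fold higher in vitro, and Hmgcs1, Cyp51 and Msmo1 reversed to 0.27, 0.48 and 0.056. The in vivo minus in vitro median was 0.02, 0.10 with centring and 0.0021 without the level filter, and the PBS median was 0.082 with the mean of all probe sets, against 0.14. The limma test already sets dexamethasone against vehicle within setting, and its value without that block is given above. No paired analysis by replicate number was possible because each group has 1 array, and leaving out an array leaves no residual.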
